A study of Mus musculus with 17 samples.

Results

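MutuDC dendritic cells of the empty-vector arm were compared after and without exposure to LPS, which shows which genes this cell line changed on meeting a bacterial signal. Of the 17 samples of the series, 5 enter the comparison, chosen by their labels: EV + LPS (MutuDC of the EV arm given LPS, n = 3) and EV (MutuDC of the same arm without LPS, n = 2). The series asks what versikine, a fragment that proteases cut from the matrix proteoglycan versican, does in the immune environment of tumours. Its other samples are MutuDC labelled Vkine + LPS and Vkine (n = 3 each) and 6 samples of CD45+ cells. EV, a common abbreviation of empty vector, labels the arm set against Vkine. The labels give neither the way EV and Vkine were delivered nor the dose of LPS and the time of exposure. Nor do they say whether samples of a group come from separate cultures. The p-values below therefore refer to the spread among these samples, and that spread may be technical.

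MutuDC is an immortal mouse line of conventional dendritic cells of the cDC1 type, the cells that take up dead cell material and present it to CD8 T cells. Lines of this name came from spleen tumours of mice that carry the SV40 large T antigen under the CD11c promoter. LPS, the lipopolysaccharide of the outer membrane of Gram-negative bacteria, is bound by CD14, MD-2 and the receptor TLR4. The adaptor MyD88 links TLR4 to NF-kB and MAP kinases, and with them to inflammatory cytokines, while the adaptor TRIF links it to IRF3, to interferon beta and, through the interferon receptor, to interferon-stimulated genes. In dendritic cells these signals accompany maturation, in which the cells raise costimulatory molecules and leave the tissue for lymph nodes.

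RNA was measured by sequencing, and values are given as CPM, a gene's counts scaled to a common library total after TMM normalization, unless stated otherwise. Library totals were 16550499 to 18034979 counts in EV + LPS and 17194906 to 19673562 counts in EV. The 25 genes of the cDC1 marker list summed to 12890 to 13320 CPM in EV + LPS and 14310 to 14330 CPM in EV, and 23 of them had a mean FPKM of at least 1. Of the 12 T and NK cell markers, 8 had no count in the 5 samples, and the list summed to 2.13 to 3.12 CPM in EV + LPS and 1.001 to 1.04 CPM in EV. Macrophage and monocyte markers summed to 471.5 to 568.1 CPM in EV + LPS and 536.4 to 552.9 CPM in EV. Of their 11 tested genes 6 were called higher, among them Adgre1, which encodes F4/80, with 8.44, 8.77 and 8.62 CPM in EV + LPS samples, against 0.933 and 1.12 CPM in EV samples, and the C1q chains C1qa, C1qb and C1qc, while Csf1r was called lower. Markers of B cells summed to 126 to 149 CPM in EV + LPS and 77.9 to 78.8 CPM in EV, and those of plasmacytoid dendritic cells to 76.02 to 93.5 CPM in EV + LPS and 44.95 to 45.3 CPM in EV. Of the 9 B cell genes 5 were tested and 2 called higher, and of the 12 plasmacytoid genes 5 were tested and 3 called higher. Over all genes tested, 17.2% were called higher and 17.6% lower, by the test given below. The part of the macrophage, B cell and plasmacytoid markers in the results was not tested. The EV + LPS samples differed more among themselves than the EV samples did. The chi-square statistic of their counts per degree of freedom was 7.66 to 31.8 for pairs of EV + LPS samples and 2.41 for the EV pair, and EV + LPS replicate 2 was in both of the larger values.

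Exposure to LPS was accompanied by changes in many genes, most of them small. Of 54532 genes in the table, 13357 passed the low-count filter, and a gene counted in a single group could pass it only through that group. A gene with very few counts in EV could hardly be called lower. Of those tested, 2294 were higher in EV + LPS (17.2%) and 2355 were lower (17.6%), 34.8% in all, by the edgeR quasi-likelihood test at a Benjamini-Hochberg adjusted p under 0.05. Such genes are called higher, lower or called below. The changes were lopsided in size. At least 2-fold differences were found in 455 genes that were higher and 239 that were lower, at least 4-fold ones in 163 and 41, and 2938 of the called genes differed by less than 1.5-fold. Without EV replicate 1, the calls fell to 1310 higher and 1426 lower, and without EV replicate 2 they fell to 1345 and 1433, since a single EV sample then remained.

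**Figure D1:**
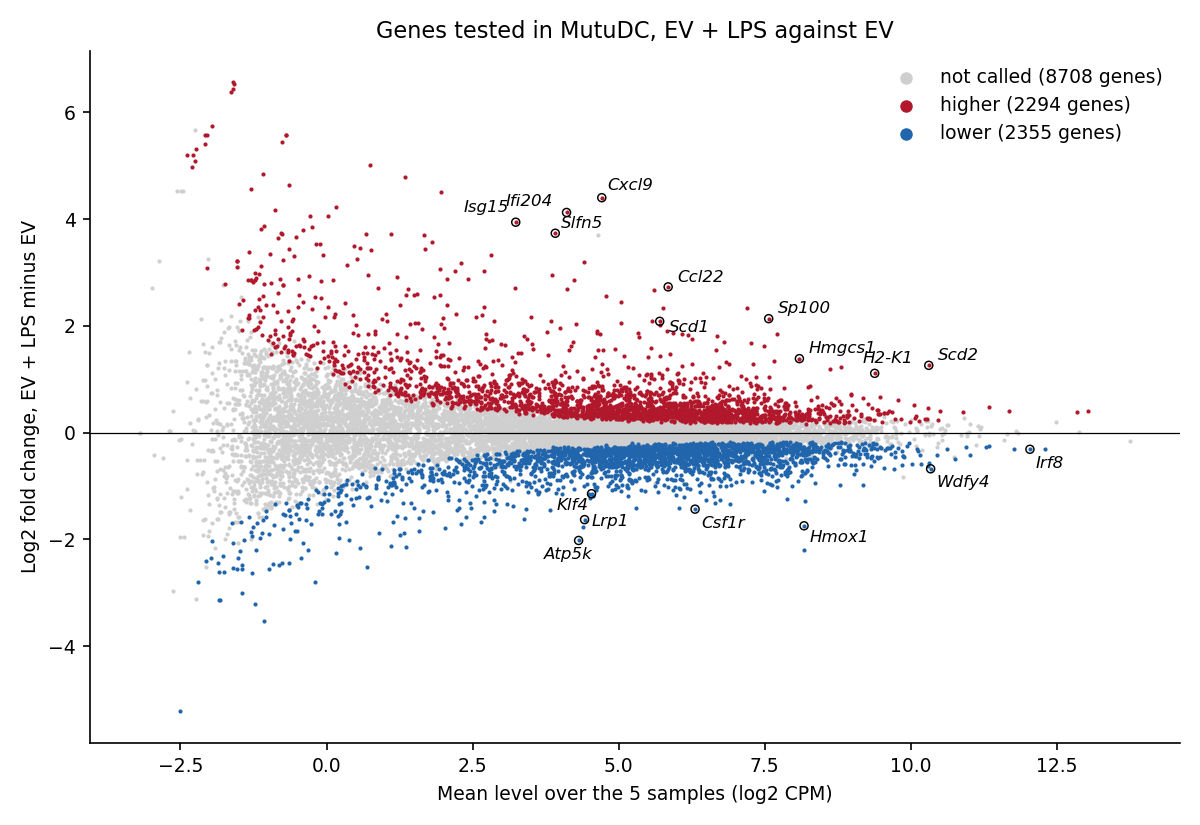
Each point is 1 of the 13357 genes tested, with its mean level over the 5 samples on the horizontal axis (log2 CPM) and the log2 fold change of EV + LPS over EV on the vertical axis; red points were called higher, blue points lower and grey points were not called. Named interferon, chemokine and sterol genes lie well above 0, and Atp5k is the lowest named gene, at -2.02.

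The fold changes followed the base composition of the genes, and this touches every small change reported here. Across 13337 genes, the Spearman correlation between GC content and log2 fold change was -0.421, a description across genes, which are not independent replicates. Genes were divided by GC content into 5 bins of equal size. In the bin of genes with the lowest GC content (22.1% to 44.7%), 37.9% were higher in EV + LPS and 2.55% lower. In the bin with the highest GC content (55.8% to 75.5%), 4.84% were higher and 37.1% lower. The correlation of GC content with a gene's deviation from its mean over the 11 MutuDC samples was -0.287, -0.491 and -0.142 in the EV + LPS samples, against 0.374 and 0.305 in the EV samples. With each sample's trend with GC content and transcript length removed before the fit, an alternative chosen after seeing the data and called the trend-removed fit below, 2038 genes were higher (15.3%) and 1875 lower (14.0%). Of the genes called higher and lower at first, 63.8% and 58.9% were called in the same direction again, a share that was 89.7% and 85.8% for those with at least a 2-fold difference. What part of the trend is biological was not tested. Named genes whose call or direction changed in the trend-removed fit are given with both values.

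**Figure D2:**
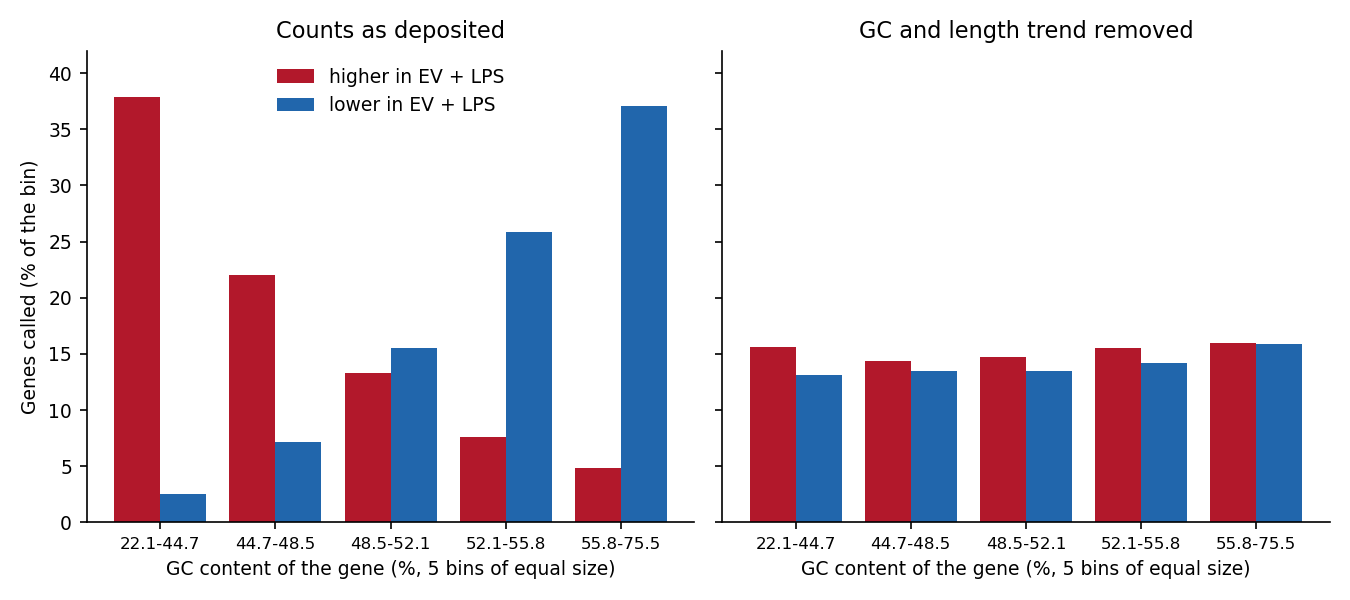
Percent of genes called higher (red) and lower (blue) in EV + LPS, in 5 bins of equal size of the genes tested by GC content (%), from the counts as deposited (left) and with the trend with GC content and transcript length removed (right). In the counts as deposited the share called higher is 37.9% in the lowest bin and 4.84% in the highest; in the trend-removed fit each of the 5 bins holds at least 14.4% called higher and at least 13.1% called lower.

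Interferon-stimulated genes rose almost without exception. Of 31 tested members of the type I interferon response list, 29 rose in EV + LPS and none fell, with a median log2 fold change of 1.85 against 0.01 over all genes tested. The trend-removed fit also called 29 higher, with a median of 1.68. Members as rare in EV as Ifit1, with 6 counts over the EV samples, could hardly have been called lower. Isg15, a ubiquitin-like protein that is attached to other proteins during the antiviral response, had 27.03, 22.7 and 33.2 CPM in EV + LPS samples, against 1.61 and 2.004 CPM in EV samples. All 3 EV + LPS samples lay above both EV samples, and the log2 fold change was 3.94 (SE 0.19, edgeR adjusted p = 4.44e-10). Ifit1 and Ifit2 bind foreign or translating RNA. Ifit1 had 4.52, 6.41 and 5.65 CPM in EV + LPS samples, against 0.155 and 0.177 CPM in EV samples, a log2 fold change of 5.0 (SE 0.39, edgeR adjusted p = 9.26e-08). Ifit2 had 48.5, 52.4 and 51.7 CPM in EV + LPS samples, against 4.61 and 6.602 CPM in EV samples, a log2 fold change of 3.19 (SE 0.14, edgeR adjusted p = 1.91e-10). The ubiquitin-like modifier and both RNA-binding genes were thus at low levels in EV and several-fold higher in every EV + LPS sample.

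The same list ranged widely in size. Usp18, the protease that removes Isg15 from proteins and restrains interferon signalling, had 70.1, 57.7 and 65.6 CPM in EV + LPS samples, against 11.7 and 12.1 CPM in EV samples. Sp100, a component of nuclear bodies, was already abundant in EV and had 335, 340.3 and 353 CPM in EV + LPS samples, against 79.4 and 76.6 CPM in EV samples, which gave the smallest adjusted p of the list (edgeR adjusted p = 4.42e-12, log2 fold change 2.13). Mx1, a GTPase that blocks influenza virus in mice with an intact gene, rose by less, with 52.2, 59.4 and 57.8 CPM in EV + LPS samples, against 28.2 and 28.7 CPM in EV samples, for a log2 fold change of 0.99 (SE 0.09, edgeR adjusted p = 4.87e-07). Oasl2 and Xaf1, an oligoadenylate synthetase-like protein and a regulator of cell death, had log2 fold changes of 2.57 and 3.32. The smallest change among the called members was in Oasl1 (log2 fold change 0.28), which inhibits translation of Irf7, with 203, 193 and 223 CPM in EV + LPS samples, against 172 and 167 CPM in EV samples.

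The start regions of several of these genes carry letters of known elements, and 3 are printed because their genes rose strongly. Each is a stretch of the window around the matches. Windows ran from 250 bases before to 50 bases after the start, with sequences from RefSeq (GRCm38.p6). Capitals mark matches on either strand to GAAANNGAA, the core of the interferon-stimulated response element, and to GGNNTTTCC, a form of the NF-kB site.
Isg15 (chr4:156200836-156200911, minus strand): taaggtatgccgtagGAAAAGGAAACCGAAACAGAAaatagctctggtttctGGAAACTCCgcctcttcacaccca
Ifit1 (chr19:34640765-34640828, plus strand): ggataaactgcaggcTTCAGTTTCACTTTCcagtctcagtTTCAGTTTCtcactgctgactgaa
Gbp2 (chr3:142620575-142620643, plus strand): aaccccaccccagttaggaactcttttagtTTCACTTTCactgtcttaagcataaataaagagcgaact
In Isg15, and at the first capitals of Ifit1, matches to the interferon element overlap each other. Over all 32851 promoter windows of the table, 8.56% hold a match to the interferon element and 5.82% hold one to the NF-kB form. Of the 15 protein-coding genes with the largest rise, 12 had a window, of which 8 hold the interferon element and 5 the NF-kB form. Of the 15 with the largest fall, 10 had a window, of which 2 hold the interferon element and 0 the NF-kB form. A gene counts here if any of its windows matches, while the 8.56% and 5.82% count single windows, so the measures are unlike. Windows matched only 70.7% of the genes tested, so no difference in motif shares between sets of genes was tested. The counts for the largest rises and falls describe genes chosen by their response, and a match is not a measured binding site.

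Several transcription factors that carry interferon signals rose, while some others of their families were called lower. Irf9, the DNA-binding subunit of the complex that interferon activates, had 117, 124 and 122 CPM in EV + LPS samples, against 31.7 and 36.5 CPM in EV samples, a log2 fold change of 1.83 (SE 0.08, edgeR adjusted p = 2.18e-10). Stat2, another subunit of that complex, had a log2 fold change of 1.12. Irf7, which amplifies interferon production, was near the limit of detection in EV, with 3.53, 3.001 and 3.13 CPM in EV + LPS samples, against 0.155 and 0.531 CPM in EV samples, for a log2 fold change of 3.25 (SE 0.38, edgeR adjusted p = 9.73e-06). Over the 15 tested IRF and STAT genes, 6 rose and 4 fell, against 17.2% and 17.6% of all genes tested. Among those that fell, Irf1 had a log2 fold change of -0.29 and Irf8, the defining factor of cDC1, one of -0.31. In the trend-removed fit neither was called, with values of -0.16 and -0.05. There, 6 genes of the list rose and 1 fell, against 15.3% and 14.0% of all genes tested.

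Interferon itself was hardly seen. Ifnb1, the gene of interferon beta, had 4 counts in EV + LPS replicate 1 and 0 counts in the other 4 samples, and no count of Ifna4, Ifng, Ifnl2 or Ifnl3 was recorded. The receptor gene Ifnar1 had 131, 147 and 129 CPM in EV + LPS samples, against 139.8 and 137 CPM in EV samples, and was not called, while Ifnar2 fell (log2 fold change -0.39). The groups overlapped for Ifnar1 and did not overlap for Ifnar2. Since the time of exposure is not given, these counts describe 1 unknown time point.

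All 13 tested interferon-inducible GTPases, proteins that attack the vacuoles of intracellular pathogens, rose in EV + LPS, with a median log2 fold change of 2.15, also with Gbp5 at its bound, and 2.11 in the trend-removed fit. Gbp2 had 12.1, 14.2 and 17.5 CPM in EV + LPS samples, against 1.503 and 2.12 CPM in EV samples, a log2 fold change of 3.02 (SE 0.21, edgeR adjusted p = 3.07e-08). Irgm1, which regulates the other members of the immunity-related GTPases, had 43.6, 40.7 and 39.9 CPM in EV + LPS samples, against 11.04 and 11.7 CPM in EV samples. Gbp5 had no count in EV and 16, 9 and 8 counts in the EV + LPS samples, at least 7.49-fold higher against a floor of 3 counts over the EV samples. The groups were separate for each of these genes. Tgtp1, Tgtp2 and Gvin1 have near-identical copies whose reads the counting may have divided, so their values are uncertain. Gbp7, Gvin1 and Tgtp1 had 2, 2 and 1 counts over the EV samples and, like Gbp5, could hardly have been called lower. Iigp1, Gbp6, Gbp10 and Gbp11 did not pass the low-count filter.

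The Ifi200 genes, sensors and nuclear proteins that respond to DNA, and the Schlafen genes, which act on RNA and proliferation, lie in gene clusters that rose almost as a whole. In the Ifi200 cluster on chromosome 1 (chr1:173350879-174031810, GRCm38), all 10 tested genes were higher. Of these, Ifi208 had 1 count over the EV samples and could hardly have been called lower. In the Schlafen cluster (chr11:82951349-83215154), 5 of 6 were higher. Ifi204 had 53.1, 50.9 and 56.2 CPM in EV + LPS samples, against 3.21 and 2.89 CPM in EV samples, a log2 fold change of 4.12 (SE 0.11, edgeR adjusted p = 4.35e-13). Ifi205, which is also a cDC1 marker, had 237, 235 and 263 CPM in EV + LPS samples, against 76.9 and 75.9 CPM in EV samples. Slfn5 had 40.7, 47.95 and 37.4 CPM in EV + LPS samples, against 2.902 and 3.42 CPM in EV samples, with a log2 fold change of 3.73 (SE 0.14, edgeR adjusted p = 2.35e-11). At these genes the EV + LPS samples lay above the EV samples, and groups without overlap, in either direction, were found for 54.3% of all genes tested. For Ifi204 and Slfn5, among the 15 largest rises, it was a condition of their choice. Aim2, the sensor of cytosolic DNA at the end of the Ifi200 cluster, rose least (log2 fold change 0.63). Members of these families are similar in sequence, and how the counting treated reads shared between them is not given in the sources used here. Over both families, 15 of 16 tested genes rose, with a median of 1.72 and 1.42 in the trend-removed fit.

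Most chemokines rose. Of 14 tested, 11 were higher and 2 lower (1 lower without EV + LPS replicate 2), with a median log2 fold change of 2.07, or 1.90 with Ccl7, which had no count in EV, at its bound. Cxcl9, a ligand of CXCR3 on T and NK cells, had the largest fold change among protein-coding genes whose mean log2 CPM reached 2, with 82.2, 86.96 and 94.8 CPM in EV + LPS samples, against 4.35 and 3.95 CPM in EV samples. The EV + LPS samples lay far above the EV samples, 21.1-fold on the fitted scale (log2 fold change 4.4, SE 0.11, edgeR adjusted p = 4.32e-13). Cxcl10, a second ligand of CXCR3, had 11.3, 8.59 and 11.1 CPM in EV + LPS samples, against 1.35 and 1.18 CPM in EV samples, a log2 fold change of 3.02 (SE 0.20, edgeR adjusted p = 1.71e-08). Ccl22, which attracts CCR4-bearing T cells including regulatory ones, was the most abundant of the list after LPS, with 122, 117 and 128 CPM in EV + LPS samples, against 18.6 and 18.3 CPM in EV samples, for a log2 fold change of 2.73 (SE 0.09, edgeR adjusted p = 3.83e-12). Ccl5, an attractant of T cells, stayed rare, with 1.103, 1.53 and 2.24 CPM in EV + LPS samples, against 0.466 and 0.236 CPM in EV samples. Ccl2 was not called (log2 fold change 0.32). Those that fell were Ccl6 (log2 fold change -0.36) and Cx3cl1, the membrane-bound ligand of CX3CR1. Cx3cl1 had 4.74, 4.41 and 5.15 CPM in EV + LPS samples, against 14.7 and 11.7 CPM in EV samples, a log2 fold change of -1.47 (SE 0.16, edgeR adjusted p = 3.91e-06). Its groups did not overlap, a condition for the 15 largest falls, as it was for the 15 largest rises, which include Cxcl9, Cxcl10 and Ccl22. Cx3cl1 is a neighbour of Ccl17 and Ccl22, which both rose, on chromosome 8.

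**Figure D3:**
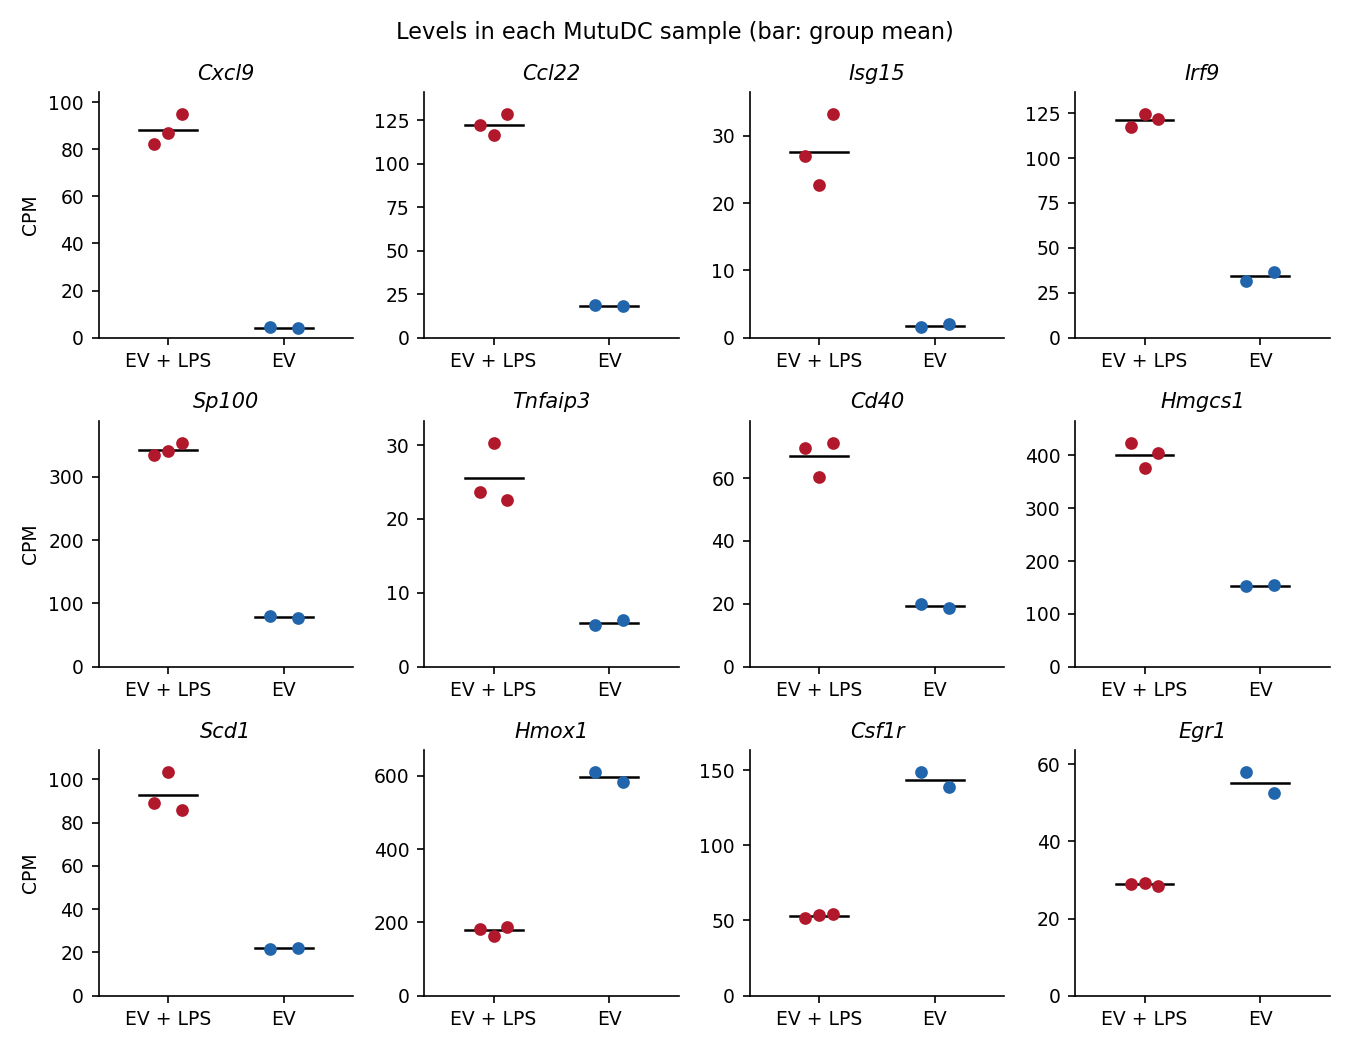
Level of 12 genes in each sample (CPM, vertical axes from 0), with the 3 EV + LPS samples (red) left of the 2 EV samples (blue) and a bar at each group's mean. No gene shown has overlapping groups, which holds for 54.3% of all genes tested, and Hmox1, Csf1r and Egr1 are lower in EV + LPS.

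The windows of the CXCR3 ligands are printed because they hold matches to both elements, marked in capitals as above (RefSeq, GRCm38.p6).
Cxcl10 (chr5:92349024-92349117, minus strand): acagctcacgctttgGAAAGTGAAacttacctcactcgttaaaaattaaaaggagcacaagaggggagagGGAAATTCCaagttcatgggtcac
Cxcl9 (chr5:92328098-92328269, minus strand): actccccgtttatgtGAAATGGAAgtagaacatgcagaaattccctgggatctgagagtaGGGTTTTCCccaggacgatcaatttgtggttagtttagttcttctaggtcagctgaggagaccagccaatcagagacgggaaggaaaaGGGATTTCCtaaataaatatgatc

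Most inflammatory cytokines rose, many of them rare in EV. Of 17 tested, 12 were higher and 1 was lower, with a median log2 fold change of 1.65, or 1.21 with Csf1, which had no count in EV, at its bound. Il1b, the gene of interleukin 1 beta, had 5.08, 4.88 and 7.73 CPM in EV + LPS samples, against 0.155 and 0.766 CPM in EV samples, a log2 fold change of 3.72 (SE 0.38, edgeR adjusted p = 2.56e-06). Tnf, the gene of tumour necrosis factor, had 5.903, 5.001 and 6.55 CPM in EV + LPS samples, against 2.12 and 1.18 CPM in EV samples, and Il6 had 1.38, 1.41 and 2.35 CPM in EV + LPS samples, against 0.259 and 0.413 CPM in EV samples. The groups were separate for all 3 cytokines, yet the highest value in an EV + LPS sample was 7.73 CPM. Il15, which supports NK and CD8 T cells, was better expressed, with 22.01, 20.2 and 22.6 CPM in EV + LPS samples, against 10.5 and 9.904 CPM in EV samples, for a log2 fold change of 1.08 (SE 0.12, edgeR adjusted p = 4.54e-06). The single member that fell was Tgfb1, an anti-inflammatory cytokine (log2 fold change -0.36). Il10, Il12a, Il23a, Csf2 and Csf3 did not pass the low-count filter, nor did Ptgs2 and Nos2, inducible enzymes often raised by LPS in macrophages, with 0 and 4 counts in the 5 samples.

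Genes of the negative feedback of NF-kB rose, and its subunits were mixed. Of 18 tested inhibitors and feedback genes, 12 rose and none fell (median log2 fold change 0.66), and 14 rose in the trend-removed fit (median 0.88). Tnfaip3, the gene of the ubiquitin-editing enzyme A20, had 23.6, 30.2 and 22.6 CPM in EV + LPS samples, against 5.65 and 6.31 CPM in EV samples, a log2 fold change of 2.09 (SE 0.14, edgeR adjusted p = 1.32e-08). Nfkbia, the gene of the inhibitor that holds NF-kB in the cytosol, had 224, 183 and 220.01 CPM in EV + LPS samples, against 114 and 110.2 CPM in EV samples (log2 fold change 0.90). Nfkbiz, a nuclear member of that family, had 13.02, 13.003 and 12.04 CPM in EV + LPS samples, against 2.85 and 3.12 CPM in EV samples. In each of these, every EV + LPS sample was above every EV sample. Traf1 and Birc3, adaptors of TNF receptor signalling, had log2 fold changes of 2.57 and 1.02. Among the 5 subunits, Relb and Nfkb2 of the noncanonical arm rose most, with log2 fold changes of 1.18 (SE 0.10, edgeR adjusted p = 3.23e-07) and 0.92 (SE 0.07, edgeR adjusted p = 3.77e-08). Nfkb1 rose by less (0.26), Rel was not called (0.36, called higher in the trend-removed fit, 0.29), and Rela fell (-0.30), a fall that the trend-removed fit did not call (-0.04).
The stretch of Tnfaip3 up to its start is printed because it holds 2 matches to the NF-kB form, in capitals (RefSeq, GRCm38.p6).
Tnfaip3 (chr10:19015411-19015464, minus strand): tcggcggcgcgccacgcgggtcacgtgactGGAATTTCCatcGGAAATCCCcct

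In the counts as deposited, few genes of the receptor complex that binds LPS were called. Of 17 tested genes of the TLR4 complex and its adaptors, 2 rose and 2 fell, below the 17.2% and 17.6% over all genes. The trend-removed fit called 4 higher and 2 lower, against 15.3% and 14.0% of all genes. Without EV + LPS replicate 2, 4 fell in the counts as deposited. Tlr4 itself had 7.12, 6.83 and 5.71 CPM in EV + LPS samples, against 6.53 and 4.66 CPM in EV samples, and was not called. Cd14, the coreceptor, had 6.45, 3.82 and 7.89 CPM in EV + LPS samples, against 5.804 and 5.48 CPM in EV samples, and was not called either. The samples of the groups overlapped for both. Ly96, the gene of MD-2, was higher (log2 fold change 0.67, not called in the trend-removed fit, 0.35), and Ticam1, the gene of TRIF, was lower (-0.36, not called there, -0.06). Sensors of RNA and DNA in the cytosol differed among themselves. Ifih1, the gene of MDA5, had 42.4, 46.1 and 36.3 CPM in EV + LPS samples, against 5.13 and 6.31 CPM in EV samples, a log2 fold change of 2.87 (SE 0.14, edgeR adjusted p = 5.18e-10). Dhx58 and Ddx58, the genes of its relatives LGP2 and RIG-I, had log2 fold changes of 2.68 and 2.55, and Zbp1, a sensor of Z-form nucleic acids, had one of 2.87. Aim2, a DNA sensor, and Mb21d1, the gene of the DNA sensor cGAS, rose by less (0.63 and 0.34). Tmem173, the gene of the adaptor STING, fell (-0.26), and Mavs, the adaptor of the RNA sensors, was not called (-0.28). Over the 20 tested sensors other than the TLR4 complex, 12 rose and 4 fell.

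**Figure D4:**
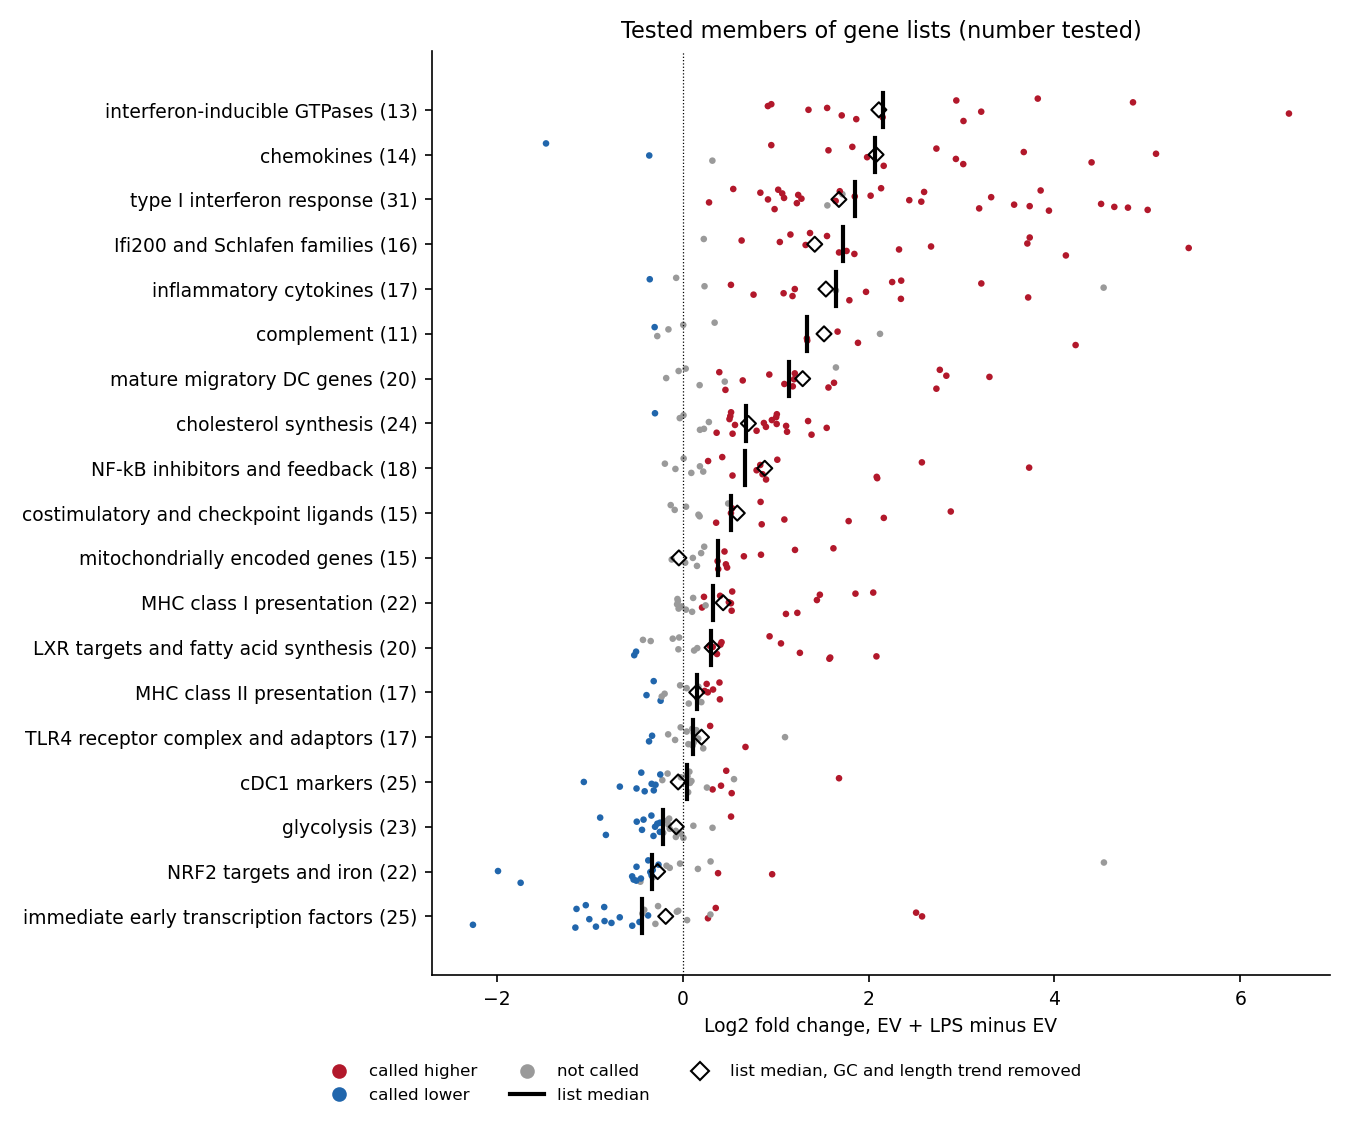
Log2 fold change of EV + LPS over EV (horizontal axis) for every tested member of 19 of the gene lists, with the number tested in parentheses. Red, blue and grey points were called higher, lower and not called, the black bar is the list median and the diamond the median in the trend-removed fit; the mitochondrially encoded list moves from 0.38 to -0.04 between the fits, and the interferon-inducible GTPases from 2.15 to 2.11.

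Maturation genes rose in part. Of 20 tested genes of mature migratory dendritic cells, 14 rose and none fell, with a median log2 fold change of 1.14. Of 15 costimulatory and checkpoint ligands, 9 rose and none fell, with a median of 0.52. Cd40, the receptor through which T helper cells license dendritic cells, had 69.6, 60.4 and 71.04 CPM in EV + LPS samples, against 20.1 and 18.8 CPM in EV samples, a log2 fold change of 1.78 (SE 0.09, edgeR adjusted p = 5.95e-10). Cd83, a marker of mature dendritic cells, had 87.3, 79.1 and 93.9 CPM in EV + LPS samples, against 40.7 and 40.6 CPM in EV samples (log2 fold change 1.09). Cd80 and Cd86, the ligands of CD28, differed in size. Cd80 had 42.9, 45.9 and 42.6 CPM in EV + LPS samples, against 25.2 and 23.3 CPM in EV samples, and Cd86 had 157, 175 and 182 CPM in EV + LPS samples, against 134 and 134 CPM in EV samples. No gene of these 4 had overlapping groups, which holds for 54.3% of all genes tested. The change of Cd86 was the smallest of the 4 (log2 fold change 0.36, SE 0.07, edgeR adjusted p = 0.00121). Lgals9, a ligand of the checkpoint receptor TIM-3, rose most in the costimulatory list (log2 fold change 2.88). Fscn1, the actin-bundling protein of dendrites, had 5.52, 6.06 and 5.37 CPM in EV + LPS samples, against 4.198 and 4.01 CPM in EV samples. Ccr7, the receptor that guides dendritic cells to lymph nodes, had 4 counts in the 5 samples and was not tested.

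Most genes of MHC class I presentation rose, and class II genes were mixed. Of 22 class I genes, 13 rose and none fell (median log2 fold change 0.32); the trend-removed fit called 16 higher and 2 lower. Nlrc5, the transactivator of class I genes, had 73.9, 88.96 and 71.1 CPM in EV + LPS samples, against 29.7 and 27.5 CPM in EV samples, a log2 fold change of 1.44 (SE 0.11, edgeR adjusted p = 4.45e-08). B2m, the light chain of class I, had 643, 559.7 and 696 CPM in EV + LPS samples, against 263 and 275 CPM in EV samples (log2 fold change 1.23). H2-K1, a classical heavy chain, had 941, 782 and 1008 CPM in EV + LPS samples, against 426 and 417 CPM in EV samples (log2 fold change 1.11). In these genes every EV + LPS sample lay above every EV sample. The nonclassical H2-Q6 and H2-Q7 had log2 fold changes of 1.86 and 2.05, but are near copies whose reads may be exchanged. Tap1, the peptide transporter, had 441, 402 and 448 CPM in EV + LPS samples, against 399.6 and 403 CPM in EV samples, and was not called, but was called higher in the trend-removed fit (0.36). Of 17 class II genes, 6 rose and 3 fell, against 17.2% and 17.6% over all genes, so the share that fell was near that of all genes. H2-Aa, a class II chain, had 2374, 2129 and 2648 CPM in EV + LPS samples, against 2313 and 2248 CPM in EV samples, with overlapping groups, and the transactivator Ciita fell slightly (log2 fold change -0.24), with the opposite sign in the trend-removed fit (0.11, not called).

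The markers of the cDC1 type showed no common direction. Of 25, 5 rose and 9 fell, against 17.2% and 17.6% of all genes tested, with a median log2 fold change of 0.04. Clec9a, the receptor for actin of dead cells, had 374, 427 and 383 CPM in EV + LPS samples, against 382 and 377 CPM in EV samples, with overlapping groups. Xcr1, the receptor of the chemokine XCL1, rose modestly, with 394, 441 and 402 CPM in EV + LPS samples, against 278 and 294 CPM in EV samples, for a log2 fold change of 0.53 (SE 0.07, edgeR adjusted p = 4.63e-05). Wdfy4, needed in mice for cross-presentation of cell-bound antigen, fell, with 1005, 1262 and 967 CPM in EV + LPS samples, against 1717 and 1732 CPM in EV samples, for a log2 fold change of -0.68 (SE 0.09, edgeR adjusted p = 2.84e-05). In both, the groups were separate. Cadm1, an adhesion molecule of cDC1, fell as well (-0.50), and Batf3, a factor of cDC1 development, had a log2 fold change of -0.41 that was not called in the trend-removed fit (-0.07). RNA of bulk samples cannot tell fewer cells of a type from less RNA per cell. Among 20 tested genes of antigen uptake and cross-presentation, 8 rose and 5 fell, against 17.2% and 17.6% of all genes. Fcgr1, among those that rose, had no count in EV and 6, 4 and 9 counts in the EV + LPS samples. Lrp1, a large scavenger receptor, was among the 5 that fell, with 12.1, 16.003 and 12.7 CPM in EV + LPS samples, against 41.9 and 42.1 CPM in EV samples, for a log2 fold change of -1.63 (SE 0.11, edgeR adjusted p = 1.64e-08).

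Several receptors for growth factors of myeloid cells fell. Csf1r, the receptor of M-CSF and interleukin 34, had 51.7, 53.4 and 54.4 CPM in EV + LPS samples, against 148 and 139 CPM in EV samples, a log2 fold change of -1.43 (SE 0.07, edgeR adjusted p = 4.74e-10). Csf2rb, the signalling chain of the GM-CSF receptor, had 142, 156 and 141 CPM in EV + LPS samples, against 287 and 287 CPM in EV samples, a log2 fold change of -0.97 (SE 0.07, edgeR adjusted p = 5.26e-08). Flt3, the receptor that sustains dendritic cells, fell by less, with 34.4, 38.3 and 35.7 CPM in EV + LPS samples, against 49.96 and 48.5 CPM in EV samples (log2 fold change -0.45). Each receptor was lower in all 3 EV + LPS samples. In contrast, Il10ra, the receptor chain of the anti-inflammatory interleukin 10, rose, with 52.96, 53.4 and 52.9 CPM in EV + LPS samples, against 23.6 and 22.5 CPM in EV samples, for a log2 fold change of 1.2 (SE 0.08, edgeR adjusted p = 1.32e-08). Over the 23 cytokine receptors tested, 8 rose and 5 fell, and among 22 integrins and adhesion genes 4 rose and 8 fell. Of all genes tested, 17.2% rose and 17.6% fell. The adhesion molecule Itgal, a chain of LFA-1, had a log2 fold change of -0.73, and Icam1, its ligand, had one of -0.25 that was not called in the trend-removed fit (-0.13).

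Genes of cholesterol synthesis rose along most of the pathway. Of 24 tested genes, 18 rose and 1 fell, with a median log2 fold change of 0.68, and the trend-removed fit called 22 higher and none lower (median 0.71). Hmgcs1, which makes the precursor HMG-CoA, had 423, 375 and 405 CPM in EV + LPS samples, against 152 and 155 CPM in EV samples, a log2 fold change of 1.39 (SE 0.08, edgeR adjusted p = 2.16e-09). Idi1, an isomerase of the isoprenoid steps, had 154, 166 and 149 CPM in EV + LPS samples, against 54.3 and 52.6 CPM in EV samples (log2 fold change 1.55). Msmo1, a demethylation enzyme late in the pathway, had 303, 272 and 309 CPM in EV + LPS samples, against 116 and 116 CPM in EV samples (log2 fold change 1.35). The groups were far apart in these genes. The member that fell was Srebf2, the gene of the factor that drives the pathway (-0.30), which was not called in the trend-removed fit (0.00).
The window of Hmgcs1 is printed because it holds a match, in capitals, to TCACNCCAC, a form of the sterol regulatory element found in 1.24% of all windows (RefSeq, GRCm38.p6).
Hmgcs1 (chr13:119690184-119690252, plus strand): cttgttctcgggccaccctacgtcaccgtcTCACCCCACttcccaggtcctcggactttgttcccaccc

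Several genes that respond to LXR, the receptor for oxidised sterols, rose beside them. Of 20 genes of the LXR and fatty acid list, 11 rose and 2 fell, with a median log2 fold change of 0.31. The trend-removed fit called 11 higher and 1 lower. Abcg1, a cholesterol exporter, had 69.2, 74.1 and 74.1 CPM in EV + LPS samples, against 24.8 and 23.5 CPM in EV samples, a log2 fold change of 1.59 (SE 0.09, edgeR adjusted p = 1.46e-09). Scd1, a desaturase that makes monounsaturated fatty acids, had 89.04, 103 and 85.9 CPM in EV + LPS samples, against 21.5 and 22.2 CPM in EV samples, a log2 fold change of 2.08 (SE 0.10, edgeR adjusted p = 4.20e-10). Its close relative Scd2 was far more abundant, with 1867, 1920.4 and 1612 CPM in EV + LPS samples, against 747 and 756 CPM in EV samples (log2 fold change 1.26). Every EV + LPS sample exceeded both EV samples in all 3 genes. Abca1, a second exporter, and Mylip, a ligase that degrades the LDL receptor, had log2 fold changes of 1.58 and 1.06. Fasn, the fatty acid synthase, fell (-0.50, not called in the trend-removed fit, -0.25). The gene of an LXR receptor itself, Nr1h2, had 913, 630 and 884 counts in EV + LPS samples, against 1289 and 1093 counts in EV samples. Nr1h3, the gene of the other LXR, did not pass the low-count filter, with 13 counts over the EV + LPS samples and 9 over the EV samples.

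Immediate early genes, which many stimuli switch on within minutes, were mostly lower at the time sampled. Of 25 tested, 4 rose and 13 fell (median log2 fold change -0.44), while the trend-removed fit called 5 higher and 9 lower (median -0.18). Fos, a subunit of AP-1, had 13.2, 11.9 and 10.4 CPM in EV + LPS samples, against 27.2 and 25.5 CPM in EV samples, a log2 fold change of -1.16 (SE 0.10, edgeR adjusted p = 3.61e-07). Egr1, a zinc finger factor, had 29.02, 29.2 and 28.5 CPM in EV + LPS samples, against 57.9 and 52.6 CPM in EV samples, a log2 fold change of -0.94 (SE 0.09, edgeR adjusted p = 1.74e-06). Klf4, a factor of monocyte and dendritic cell development, had 16.99, 15.4 and 18.1 CPM in EV + LPS samples, against 36.5 and 37.9 CPM in EV samples, a log2 fold change of -1.14 (SE 0.09, edgeR adjusted p = 1.92e-07). Each of them fell in every EV + LPS sample and stayed called in the trend-removed fit, with values of -0.99, -0.63 and -0.75. Junb did not stay called (-0.54 and -0.14). Ier3, which modulates NF-kB and survival, went the other way, with 5.08, 4.82 and 4.98 CPM in EV + LPS samples, against 0.881 and 0.766 CPM in EV samples, for a log2 fold change of 2.58 (SE 0.21, edgeR adjusted p = 1.62e-07). Among 18 feedback regulators of MAP kinases, 2 rose, or 1 without EV + LPS replicate 2, and 8 fell. Dusp1, a phosphatase of p38 and JNK, fell (-0.66), Gadd45b rose (1.02) and its relative Gadd45g fell, with 28.3, 18.8 and 33.4 CPM in EV + LPS samples, against 73.02 and 70.3 CPM in EV samples, for a log2 fold change of -1.42 (SE 0.17, edgeR adjusted p = 1.65e-05).

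Many heme and redox genes fell. Of 22 tested NRF2 targets and iron genes, 2 rose, or 4 without EV + LPS replicate 2, and 12 fell, with a median log2 fold change of -0.33, and the trend-removed fit called 2 higher and 10 lower (median -0.27). Hmox1, the enzyme that breaks down heme, had 181, 164 and 188 CPM in EV + LPS samples, against 609 and 584 CPM in EV samples, 3.35-fold lower (log2 fold change -1.75, SE 0.08, edgeR adjusted p = 1.55e-10). Txnrd1, a thioredoxin reductase, had 163, 162 and 149 CPM in EV + LPS samples, against 236 and 225 CPM in EV samples (log2 fold change -0.55), and Fth1, the heavy chain of ferritin, had 1621, 1243 and 1690.2 CPM in EV + LPS samples, against 2198 and 2099 CPM in EV samples (log2 fold change -0.50). The samples of the groups were separate in all of these. Nqo1, a widely used NRF2 target, had 1.77, 1.53 and 2.24 CPM in EV + LPS samples, against 2.49 and 2.59 CPM in EV samples, and was not called.

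Energy metabolism moved by small amounts. Of 23 glycolysis genes, 1 rose and 11 fell, with a median log2 fold change of -0.21. The trend-removed fit called 3 higher and 8 lower (median -0.07). Ldha, which makes lactate, had 1460.5, 1259 and 1593 CPM in EV + LPS samples, against 1788 and 1791 CPM in EV samples, a log2 fold change of -0.32 (SE 0.08, edgeR adjusted p = 0.00669), and -0.29 in the trend-removed fit, still called. Slc16a3, a lactate exporter, fell more (log2 fold change -0.89, SE 0.10, edgeR adjusted p = 5.11e-06). Hk2, the inducible hexokinase, and Slc2a1, the glucose transporter, were not called, with log2 fold changes of -0.07 and 0.01. Of 15 mitochondrially encoded genes, 9 rose and none fell (median 0.38). In the trend-removed fit 1 rose and 4 fell, with a median of -0.04. The list has a low median GC content of 36%, and mitochondrial genes took 1.73% to 1.96% of counts in EV + LPS and 1.36% to 1.41% in EV. mt-Rnr1, a ribosomal RNA, is the member called higher in both fits (log2 fold change 1.62 and 1.13). Of 41 nuclear genes of oxidative phosphorylation, 5 rose and 12 fell, and without EV + LPS replicate 2 the counts were 14 and 11. The trend-removed fit called 6 of them higher and 8 lower. Beside the lists of this paragraph, 17.2% of all genes tested were higher and 17.6% lower, or 15.3% and 14.0% in the trend-removed fit.

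Complement and amino acid metabolism held a few sizeable changes. Of 11 tested complement genes, 5 rose and 1 fell, with 2 lower without EV + LPS replicate 2 and 3 lower in the trend-removed fit. C3, the central component, was barely counted in EV and had 2.54, 3.24 and 3.92 CPM in EV + LPS samples, against 0 and 0.354 CPM in EV samples, a log2 fold change of 4.23 (SE 0.50, edgeR adjusted p = 9.42e-06). C1qa, a chain of the C1q recognition molecule, had 22.5, 19.6 and 26.8 CPM in EV + LPS samples, against 5.96 and 6.48 CPM in EV samples (log2 fold change 1.89). Of 11 tested genes of arginine, itaconate and tryptophan metabolism, 5 rose and 3 fell. For this and the other lists of this paragraph, the shares over all genes tested were 17.2% higher and 17.6% lower. Acod1, the enzyme that makes itaconate, was also rare in EV, with 1.99, 2.18 and 1.85 CPM in EV + LPS samples, against 0.104 and 0.236 CPM in EV samples, for a log2 fold change of 3.54 (SE 0.44, edgeR adjusted p = 1.60e-05). These genes were separate between the groups. Kynu, of tryptophan breakdown, rose (log2 fold change 1.19), and Ido1, the first enzyme of that route, had 0.772, 0.5295 and 1.06 CPM in EV + LPS samples, against 0.622 and 0.472 CPM in EV samples, and was not called. Those that fell were Slc7a5 and Slc3a2 (log2 fold changes -0.35 and -0.34), the chains of an amino acid transporter, and Odc1, which starts polyamine synthesis (-0.20). Among 25 survival and apoptosis genes, 13 rose and 2 fell, including the BCL2 relatives Bcl2a1a and Bcl2a1d, whose copies are nearly identical and share reads, with log2 fold changes of 1.08 and 0.90. Of 15 p53 targets, 5 rose and 1 fell, among them Cdkn1a, the cell cycle inhibitor p21 (log2 fold change 0.79, SE 0.07, edgeR adjusted p = 5.52e-07).

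Smaller shifts were found among regulators and receptors. Of 9 chemokine receptors, 5 rose and none fell, and 4 rose in the trend-removed fit. Ccr2, which guides cells towards CCL2, had 41.05, 40.8 and 36.8 CPM in EV + LPS samples, against 23.01 and 23.5 CPM in EV samples, for a log2 fold change of 0.77 (SE 0.10, edgeR adjusted p = 4.28e-05). Cxcr4, the receptor of CXCL12, had 5.19, 4.82 and 4.42 CPM in EV + LPS samples, against 2.902 and 2.71 CPM in EV samples (log2 fold change 0.77). Both were higher in every EV + LPS sample. Of 14 genes that restrain cytokine signalling, 3 rose, or 5 without EV + LPS replicate 2, and 5 fell (4 and 3 in the trend-removed fit). Socs3, an inhibitor of interleukin 6 receptor signalling, had 1.38, 1.53 and 2.97 CPM in EV + LPS samples, against 1.04 and 1.36 CPM in EV samples, and was not called, but was called higher in the trend-removed fit (1.11). Sh2b3, an adaptor that restrains JAK kinases, fell (log2 fold change -0.56), and was not called in the trend-removed fit (-0.04). Of 25 transcription factors of dendritic cell lineages, 6 rose and 7 fell, against 17.2% and 17.6% of all genes, and in the trend-removed fit 8 rose and 4 fell. Runx3, which takes part in dendritic cell development, had 57.7, 65.8 and 58.2 CPM in EV + LPS samples, against 101 and 102 CPM in EV samples (log2 fold change -0.75), and Bhlhe40, a repressor that many activated immune cells raise, had 56.3, 50.95 and 53.1 CPM in EV + LPS samples, against 38.1 and 37.9 CPM in EV samples (log2 fold change 0.49). The directions of these factors were opposite and the groups separate in both.

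Lipid mediators, lysosomes and the cytoskeleton were mixed. Of 13 eicosanoid genes, 5 rose and 1 fell, and in the trend-removed fit 4 rose and 3 fell. Hpgd, which inactivates prostaglandins, had 220.2, 199 and 234 CPM in EV + LPS samples, against 123 and 122 CPM in EV samples, for a log2 fold change of 0.83 (SE 0.09, edgeR adjusted p = 3.41e-06). Alox5ap, needed to make leukotrienes, fell, with 82.97, 74.1 and 89.6 CPM in EV + LPS samples, against 139.7 and 134 CPM in EV samples and no overlap of the groups (log2 fold change -0.73). Of 28 lysosomal genes, 6 rose and 6 fell, near the 17.2% and 17.6% over all genes, and in the trend-removed fit 10 rose and 4 fell. Npc1, which exports cholesterol from lysosomes, had 47.8, 60.7 and 50.3 CPM in EV + LPS samples, against 96.8 and 97.9 CPM in EV samples, for a log2 fold change of -0.88 (SE 0.09, edgeR adjusted p = 2.62e-06). Of 27 actin and migration genes, 5 rose, near the 17.2% over all genes, and 9 fell (17.6% over all genes). Marcks, a membrane-bound regulator of actin, had 750.1, 655 and 687 CPM in EV + LPS samples, against 439.7 and 453 CPM in EV samples, and its relative Marcksl1 had 564, 469 and 611 CPM in EV + LPS samples, against 235 and 243 CPM in EV samples. Both relatives were higher in all EV + LPS samples, with log2 fold changes of 0.64 and 1.2. Of 21 genes of the ATF4 and unfolded protein responses, 5 rose, near the share over all genes, and 1 fell (6 and 2 in the trend-removed fit), and Dnajb9, a chaperone partner of the endoplasmic reticulum, rose most clearly (log2 fold change 0.79, SE 0.10, edgeR adjusted p = 1.85e-05). Of 14 heat shock chaperones, 3 rose and 3 fell, again near those shares (1 and 3 in the trend-removed fit), with Hsp90aa1 higher (log2 fold change 0.39). Of 7 tested genes of versican and hyaluronan matrix, 1 rose and 3 fell (none and 1 in the trend-removed fit). Vcan, the gene of versican, had 0.166, 0.5295 and 0.2799 CPM in EV + LPS samples, against 0.518 and 0.5895 CPM in EV samples, and was not called, while Tgfbi, a secreted matrix protein, fell, with 535, 504 and 569 CPM in EV + LPS samples, against 743 and 726 CPM in EV samples (log2 fold change -0.45). The groups of Vcan overlapped at very low levels.

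Growth machinery showed no common direction. Of 34 genes of DNA replication and mitosis, 7 rose and 6 fell, near the 17.2% and 17.6% over all genes. In the trend-removed fit 3 of them rose and 6 fell. Mki67, a proliferation marker, had 661, 836 and 672 CPM in EV + LPS samples, against 696 and 727 CPM in EV samples, and was not called. Of 62 cytosolic ribosomal protein genes, 6 rose and 8 fell. Without EV + LPS replicate 2, those counts were 22 and 5. Of 28 ribosome biogenesis genes, 5 rose, or 8 without that replicate, and 9 fell. With all samples, the ribosomal protein counts were below the 17.2% higher and 17.6% lower over all genes. In the trend-removed fit none of the biogenesis genes rose and 10 fell, among them Pes1, a factor of large subunit assembly (log2 fold change -0.40 and -0.37).

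The 15 protein-coding genes with the largest falls were mixed in function. Beside Hmox1, Lrp1, Cx3cl1 and Csf1r they included Adnp, a chromatin-associated homeobox factor, with 2.703, 2.47 and 2.13 CPM in EV + LPS samples, against 9.899 and 6.96 CPM in EV samples, for a log2 fold change of -1.79 (SE 0.22, edgeR adjusted p = 1.78e-05). Gnas, the stimulatory G protein subunit, had 14.5, 12.7 and 11.3 CPM in EV + LPS samples, against 43.9 and 43.6 CPM in EV samples (log2 fold change -1.77); its locus holds several overlapping transcripts. Ctgf, a secreted matrix-associated growth factor, had 2.76, 2.94 and 4.31 CPM in EV + LPS samples, against 10.7 and 9.37 CPM in EV samples (log2 fold change -1.59). Atp5k, a subunit of ATP synthase, had 16.3, 6.77 and 12.04 CPM in EV + LPS samples, against 48.9 and 46.3 CPM in EV samples (log2 fold change -2.02, SE 0.46, edgeR adjusted p = 0.0096). The EV + LPS samples of Atp5k were uneven, with replicate 2 lowest. That all lay below EV was a condition for these 15 genes. Vasn, which binds TGF-beta, was uneven the other way, with 5.35, 14.2 and 3.86 CPM in EV + LPS samples, against 19.3 and 22.7 CPM in EV samples, replicate 2 being nearest to EV, and was not called in the trend-removed fit (-1.44 and -1.11). The protocadherins Pcdh1 and Pcdh7, the histone gene Hist1h2bg, Shroom4, Pheta1 and Sox4 completed the group, with log2 fold changes of -1.71 to -1.42.

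Among the 15 largest rises outside the lists, Serpina3g, an inhibitor of cathepsins, had 11.3, 10.9 and 12.5 CPM in EV + LPS samples, against 0.933 and 1.65 CPM in EV samples (log2 fold change 3.18, SE 0.21, edgeR adjusted p = 1.32e-08), and Apol7c, an apolipoprotein L gene, had 30.5, 30.5 and 36.4 CPM in EV + LPS samples, against 3.94 and 4.48 CPM in EV samples (log2 fold change 2.95, SE 0.12, edgeR adjusted p = 7.75e-11). Noncoding genes changed too. AW112010, a transcript named as lincRNA in the deposited annotation, had 18.8, 16.4 and 18.5 CPM in EV + LPS samples, against 5.597 and 5.72 CPM in EV samples (log2 fold change 1.66), and Mir17hg, the host transcript of the miR-17 cluster, had 7.23, 6.001 and 7.73 CPM in EV + LPS samples, against 3.11 and 2.12 CPM in EV samples (log2 fold change 1.41). Gm26917 was the most abundant noncoding gene among those with the largest falls, with 79.9, 61.01 and 51.1 CPM in EV + LPS samples, against 162 and 145 CPM in EV samples (log2 fold change -1.26, and -0.47 in the trend-removed fit). Of 337 tested lincRNA genes, 52 rose and 11 fell (15.4% and 3.26%), against 17.2% and 17.6% of all genes tested. In the trend-removed fit 45 rose and 10 fell.

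The response of the Vkine arm to LPS, measured in 3 Vkine + LPS and 3 Vkine samples of the same model, differed from it at 6577 genes (49.2% of those tested) by the test of the difference. Of the 2294 genes higher in EV + LPS, 23.2% were also higher and 36.4% were lower in Vkine + LPS than in Vkine. Of the 2355 lower genes, 15.7% were also lower and 48.3% were higher there. Over all genes tested, 27.6% were called higher and 24.3% lower in the Vkine arm. In the trend-removed fit the shares were 31.7% and 31.8% of the genes called higher, and 21.1% and 41.2% of those called lower, with the difference called at 43.4% of genes. The genes with the largest changes were chosen by their response in the EV arm. That response is also a term of the difference, so the choice itself favours a called difference and a smaller response in the Vkine arm, and their counts are a description only. All 15 largest rises were also called higher in the Vkine arm, 13 differed in size, and of those 12 were smaller there. Ifi204 had a log2 fold change of 4.12 in the EV arm and 1.15 in the Vkine arm, a difference (Vkine minus EV) of -2.97 (SE 0.14, edgeR adjusted p = 1.54e-10). Over the type I interferon list the medians were 1.85 in the EV arm and 1.14 in the Vkine arm, and 27 of 31 members were called different. Among these, Mx1 and Oasl1 had larger rises in the Vkine arm, with log2 fold changes of 1.53 and 2.09 there. Ccl22 went the other way, with 122, 117 and 128 CPM in EV + LPS and 971, 999.8 and 1005 CPM in Vkine + LPS, and a difference of 2.83 (SE 0.11, edgeR adjusted p = 2.71e-11). Gbp2 and Serpina3g were not called different, with differences of 0.13 (SE 0.29, edgeR adjusted p = 0.741) and 0.32 (SE 0.29, edgeR adjusted p = 0.387).

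**Figure D5:**
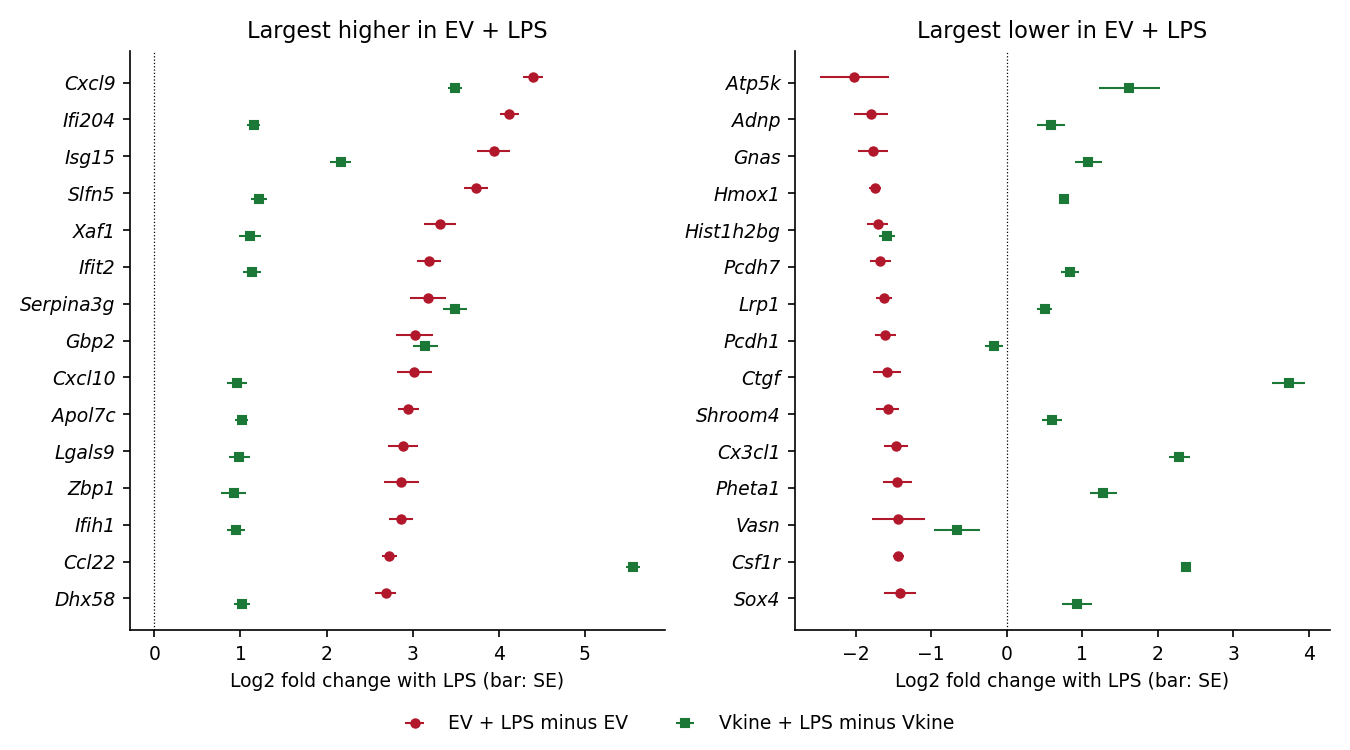
Log2 fold change with LPS (horizontal axes, bars are the SE) in the EV arm (red circles, EV + LPS minus EV) and the Vkine arm (green squares, Vkine + LPS minus Vkine) for the 15 protein-coding genes with the largest rise (left) and fall (right) in the EV arm. All 15 rises are also positive in the Vkine arm, while 12 of the 15 falls were called higher with LPS there.

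Most of the largest falls were not falls in the Vkine arm. Of the 15, 12 were called higher with LPS there, against 27.6% of all genes tested. Csf1r had 109.9, 122 and 114 CPM in Vkine + LPS and 21.9, 22.4 and 22.4 CPM in Vkine, a log2 fold change of 2.38 against -1.43 in the EV arm, and the difference was 3.81 (SE 0.10, edgeR adjusted p = 4.03e-13). Hmox1 had log2 fold changes of -1.75 in the EV arm and 0.76 in the Vkine arm. The cholesterol list had medians of 0.68 in the EV arm and -0.54 in the Vkine arm, and 20 of 24 genes were called different. Hmgcs1 had 316, 281 and 299 CPM in Vkine + LPS and 514, 532 and 561 CPM in Vkine, so its level fell with LPS there (log2 fold change -0.84). Scd1 had a log2 fold change of -2.79 in the Vkine arm, a difference of -4.87 (SE 0.13, edgeR adjusted p = 5.97e-13). Glycolysis genes had medians of -0.21 in the EV arm and 0.32 in the Vkine arm, with all 23 called different. Fos and Egr1 fell in both arms and more in the Vkine arm (-2.9 and -2.18). The correlation of GC content with each sample's deviations also changed with LPS in the opposite sense in the 2 arms, being 0.201 to 0.401 in Vkine + LPS and -0.341 to -0.0524 in Vkine. In the trend-removed fit the differences remained called for Ifi204, Csf1r, Hmox1, Hmgcs1 and Scd1. A difference between the arms without LPS and one with LPS cannot be told apart in this contrast alone.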

How the data were processed

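RNA of MutuDC was extracted with a QIAGEN RNeasy kit and sequenced from NEBNext Ultra libraries, per the labels' protocols. The submitters' processing notes name fastp, STAR, featureCounts 1.5.0-p3, DESeq2 1.20.0 and the GRCm38 build, without strandedness or the treatment of shared reads. The authors deposited whole-number counts per gene and FPKM values for each sample. Counts of the 11 MutuDC samples were analysed with edgeR 4.0.16 (R 4.3.3): low counts were removed with filterByExpr, leaving 13357 of 54532 genes, libraries were scaled by TMM, and a robust quasi-likelihood model with 1 mean per group was fitted, so the EV, EV + LPS, Vkine and Vkine + LPS samples share an estimate of the spread. P-values were adjusted by Benjamini-Hochberg over all genes tested, with a threshold of 0.05. The deposited FPKM values served for marker levels and for an alternative test with limma 3.58.1 on log2(FPKM + 1). DESeq2 1.42.0 was a further alternative. GC content and length are medians over each gene's transcripts in GENCODE M21 (GRCm38).

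On simulated counts for the same 13357 genes, the EV + LPS against EV test recovered 62.7%, 80.6% and 92.4% of genes changed by 1.5-, 2- and 4-fold. Counts limit precision for rare genes, and a gene with no count in EV has its bound set against 3 counts over the EV samples. The correlations of same-numbered samples' deviations were between -0.101 and 0.0962, so replicate numbers were not used as pairs.

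The genes named are the 15 protein-coding genes with the largest change in each direction (mean log2 CPM of at least 2, groups not overlapping, predicted genes left out), up to 4 called members with the smallest p and the first 3 members of each gene list, and up to 4 noncoding genes in each direction. Some genes that these rules select are not reported here. The comparison, its lists and these rules were chosen with earlier results of these data known. Oasl1, Aim2, Mb21d1, Tmem173, Mavs, Ccl2, Ccl6, Adgre1, C1qb, Slc7a5, Slc3a2, Odc1, Tgfb1, Flt3, Srebf2, Fasn, Nr1h2 and the members described by their lack of counts fall outside these rules and were named after their values were seen.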

Additional observations from a re-analysis of the deposited data

Results flagged for a closer look

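Of the 30 protein-coding genes with the largest changes in EV + LPS, 26 had a response to LPS in the EV arm that differed from that of the Vkine arm by the interaction test over the 11 MutuDC samples (edgeR, threshold of 0.05 after Benjamini-Hochberg adjustment). The difference was called for 49.2% of all genes. The 30 genes were chosen by the size of their response in the EV arm, which is a term of the difference. The choice itself favours a called difference and a smaller response in the Vkine arm, so the count is a description only. Values below are the log2 response in the Vkine arm minus that in the EV arm, so a negative value is a larger rise in the EV arm.

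Among genes that rose in EV + LPS, the difference was -0.91 for Cxcl9, -2.97 for Ifi204, -1.78 for Isg15, -2.52 for Slfn5 and -2.21 for Xaf1. It was -2.05 for Ifit2, -2.06 for Cxcl10, -1.94 for Apol7c, -1.90 for Lgals9, -1.95 for Zbp1, -1.91 for Ifih1 and -1.67 for Dhx58. Ccl22 was alone among them in having a larger rise in the Vkine arm, by 2.83.

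Among genes that fell in EV + LPS, the difference was 3.64 for Atp5k, 2.38 for Adnp, 2.85 for Gnas, 2.50 for Hmox1, 2.51 for Pcdh7, 2.13 for Lrp1 and 1.44 for Pcdh1. It was 5.32 for Ctgf, 2.18 for Shroom4, 3.76 for Cx3cl1, 2.73 for Pheta1, 3.81 for Csf1r and 2.34 for Sox4. GC content of genes went with LPS in opposite directions in the arms, and its part in these differences was not tested beyond the trend-removed fit.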

How the results depend on the processing

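Of 13357 genes, a test against a fold of 1.5 in place of no change called 319 higher and 171 lower, with 2162 different between the arms. Fitting the EV + LPS and EV samples alone called 1505 higher and 1511 lower, with fewer samples to estimate the spread. Leaving out 1 sample at a time gave 1310 to 2773 higher, 1426 to 2867 lower and 5321 to 7077 different between the arms, with the lowest counts of higher and lower genes where 1 EV sample remained, which was then assumed to vary like the other groups. The replicate numbers do not pair the samples, and with them as a replicate block 3919 genes were called. DESeq2 called 4406 genes. The share of calls that were higher was 49.3%, against 55.7% with upper-quartile scaling and 56% with limma on log2(FPKM + 1). Motif shares fell in the 100 bases before the start, to 2.53% for the interferon element and 1.98% for NF-kB, in a shorter window.

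Of 257 genes that the naming rules select, 125 kept their direction and call under every alternative. With the trend with GC content and length removed, the sign turned for Ccr1 (-0.088), Ciita (0.11), mt-Nd2 (-0.036), mt-Cytb (-0.23), Npm1 (-0.063) and Cdc42 (-0.26). The cause was not tested. Genes with few counts in EV, such as Ifnb1 or Gbp5, are limited by depth.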

Other observations

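Beyond the pathways described, 3 annotated classes of genes are given for EV + LPS against EV, where 17.2% of all genes tested were higher and 17.6% lower. Of 378 tested genes annotated as C2H2 zinc finger factors, 104 were higher and 54 lower (27.5% and 14.3%), with a median log2 fold change of 0.17. Their GC content is low, with a median of 47.1%, and the trend-removed fit called 74 higher and 28 lower (median 0.14). Of 48 unprocessed pseudogenes, 16 were higher and 3 lower; many are copies of expressed genes, so their reads may come from those genes. Of 7 GATA-type zinc finger factors, none were higher and 6 were lower, and 3 were lower in the trend-removed fit. These classes were singled out after their values were seen.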
